A study of Mus musculus with 48 samples.

Results

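The 11 reporter elements described here carry the coordinates of 6 regions at Sox5, Foxp2, Pou3f3 and Lhx2, genes of cortical layer identity, and were followed in intermediate progenitors and neural stem cells of the embryonic mouse cortex. They were taken by their coordinates from a table of 11709 elements, 10713 of them not scrambled controls. Of these 11 elements, 6 belonged to the class named E14 (931 elements) and 5 to the class named Shadow (903 elements). The Foxp2 region had an E14-class element only. The E14-class elements stayed close to the controls at all 4 genes: each averaged above the median of the scrambled controls, but none passed the limit that 97.5% of the controls stayed under. The highest mean of the 11 was that of the Shadow element at Lhx2, a rank that it lost when collection at E13 was left out.

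Neurons of the neocortex are born in order, deep layers before upper layers, and each layer takes on its identity through a set of transcription factors. Sox5 is an SRY-box factor that times the production of deep-layer neurons with axons leaving the cortex, and Foxp2 is a forkhead factor of layer 6 corticothalamic neurons. Pou3f3, also called Brn1, is a POU-domain factor of late progenitors and upper-layer neurons. Lhx2 is a LIM-homeodomain factor of cortical progenitors that keeps the fate of the neocortex apart from that of its borders. Enhancers are short stretches of DNA that raise transcription from a promoter, and a reporter assay measures this outside their place in the genome.

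The study was a massively parallel reporter assay in C57BL/6JRj mice, in which RNA made from a library of short elements is set against the delivered DNA. The library was brought into the somatosensory cortex by in utero electroporation at embryonic day (E) 12 to 16, and collection followed after 24 h, at E13, E14, E15, E16 or E17. Cells were fixed, stained and sorted as Tbr2-positive intermediate progenitors (IPC), dividing cells that produce neurons, or Pax6-positive neural stem cells (NSC). The 48 libraries were the DNA and RNA of 24 biological samples, with 3 per cell type at E14 and 3 at E15, and 2 at each other age. All groups had the same strain, tissue and library, and no group was mutant or drug-treated.

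The deposited table gives 1 activity value for each element, cell type and age, so each value pools 2 or 3 biological samples, and their spread and the depth behind them are unknown. Tests below therefore take the 10 combinations of cell type and age as observations, and speak of what these combinations have in common and not of the spread between embryos. Each value is also a mean over sorted cells, in which fewer active cells and less activity per cell cannot be told apart. The table holds no gene expression, so the sorted cell types were not checked against their markers. The scrambled median differed between combinations, lying between 0.164 for NSC at E13 and 2.37 for NSC at E17, so activity is given as a ratio to the scrambled median of the same combination, at which the ratio is 1. The controls themselves spread widely: the central 95% of them lay between ratios of 0.108 and 13.3 in NSC at E13, the widest range, and between 0.362 and 2.64 in NSC at E17, the narrowest.

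Coordinates are those in the element names (mm10), and gene spans are those of the GRCm38.p6 annotation, on which exons and introns were not used here. Both Sox5 regions lay inside the gene, which runs on the minus strand. The first, at chr6:144282835-144283100, was 499.2 kb from the upper end of the span, where the minus strand begins, and is called the 3′-side region below. The second, at chr6:144419756-144420021, was 362.3 kb from that end and is called the 5′-side region. These names follow the span. The single start site listed for Sox5 lies within the span, and the centres of the regions lie 335.9 kb (3′-side) and 472.8 kb (5′-side) upstream of it. The Foxp2 region, chr6:15378287-15378552, lay inside the Foxp2 span. The Pou3f3 upstream region, chr1:42691614-42691879, ended 3.89 kb before the single annotated start of the gene, and the Pou3f3 downstream region, chr1:42711506-42711771, began 11.3 kb beyond its end. The Lhx2 region, chr2:38340696-38340961, lay inside Lhx2, with its centre 1.55 kb past the nearest annotated start site. No sequence of the elements was used here, and the sources used here do not give what distinguishes E14 from Shadow elements.

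The 3′-side Sox5 element of the E14 class had the highest mean of the 6 over both cell types, and the highest in IPC but not in NSC. Its ratio was 3.68, 1.49, 1.32, 2.08 and 2.01 in IPC at E13, E14, E15, E16 and E17. In NSC it was 0.607, 1.48, 1.49, 1.68 and 0.995 at the same ages. All 5 IPC values were above the scrambled median, against 3 of 5 in NSC, and the ranges of the cell types overlapped.

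The 5′-side Sox5 element, in the same gene, stayed near the controls. In IPC it had ratios of 0.890, 1.67, 1.35, 0.577 and 0.721 from E13 to E17. In NSC the ratios were 1.44, 1.12, 1.64, 0.992 and 0.836. It was above the scrambled median in 2 of 5 IPC and 3 of 5 NSC combinations, with both late ages below it in each cell type. The span between its highest and lowest log2 values, 1.39, was narrower than that of 96.2% of the scrambled controls.

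The Foxp2 element was above the scrambled median at 4 of 5 ages in each cell type. In IPC its ratios were 1.11, 1.31, 2.74, 0.329 and 1.88 from E13 to E17, with E15 highest and E16 lowest. In NSC they were 0.373, 1.94, 2.28, 1.65 and 1.13, again highest at E15 and here lowest at E13.

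The upstream Pou3f3 element had ratios of 2.24, 0.453, 2.52, 1.07 and 2.39 in IPC from E13 to E17. Its NSC ratios were 0.233, 1.11, 2.20, 1.94 and 1.62. It too was above the scrambled median at 4 of 5 ages in each cell type, the exceptions being IPC at E14 and NSC at E13. The downstream Pou3f3 element had ratios of 1.39, 0.199, 1.37, 3.54 and 0.958 in IPC. In NSC its ratios were 1.51, 1.62, 0.889, 1.77 and 1.43. Its IPC values spread far more than its NSC values, and the IPC value at E14 was the only 1 of the 60 E14-class values below the 2.5th percentile of its controls. By definition 2.5% of control values lie below that limit, and the share of all E14-class values was not counted.

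The Lhx2 element of the E14 class gave ratios of 3.89, 0.653, 1.25, 1.04 and 0.708 in IPC from E13 to E17. In NSC it gave 0.801, 0.780, 1.36, 2.49 and 1.79. High values thus fell at E13 in IPC and at E16 and E17 in NSC.

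**Figure D1:**
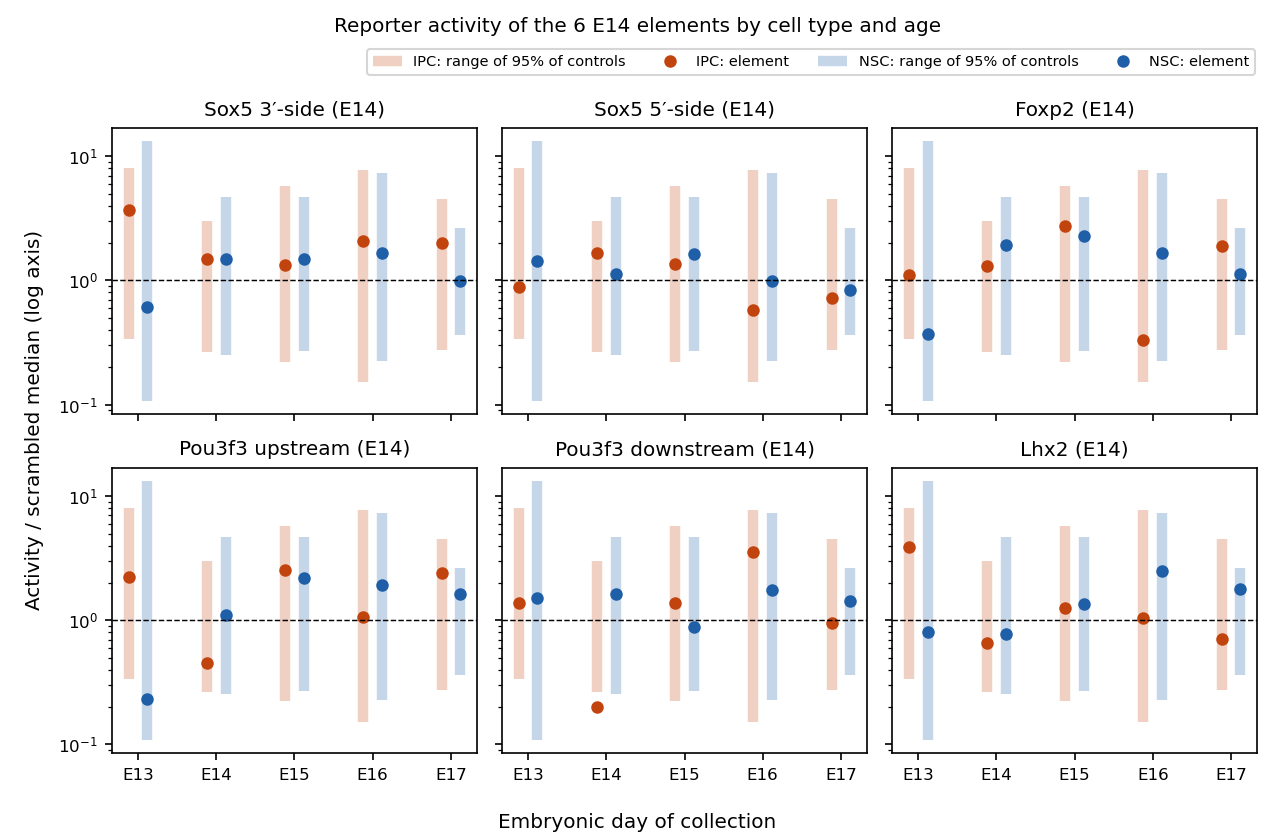
Activity of the 6 E14-class elements as a ratio to the scrambled median (log axis) at each day of collection, in IPC (orange) and NSC (blue). Bars span the central 95% of scrambled controls and the dashed line is their median. Of the 60 points 42 lie above the line and none above its bar.

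Taken over both cell types, 42 of the 60 E14-class values (70%) were above the scrambled median. The share of all E14-class values above it was not counted, so the 70% is not read as particular to these regions. The 97.5th percentile of the controls of their combination was exceeded by 0 of the 60. Among all E14-class elements 7.77% of values exceeded it. Elements above the median in at least 8 of 10 combinations numbered 3 of 6, the 3′-side Sox5, Foxp2 and upstream Pou3f3 elements, against 29.7% of E14-class elements and 7.33% of scrambled controls.

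On the log2 scale, with a pseudocount of 0.1 added to the ratio and 0 at the scrambled median, the mean over the 10 combinations was 0.57 for the 3′-side Sox5 element. That exceeded 91.3% of scrambled controls and ranked 321 among 889 E14-class elements with a value in every combination. The upstream Pou3f3 element followed at 0.36, then Lhx2 and Foxp2 at 0.30 each and downstream Pou3f3 at 0.29, above 74.7% to 80.2% of the controls. Single ages moved these means: without E15 upstream Pou3f3 was at 0.16 and Foxp2 at 0.06, without E16 downstream Pou3f3 was at 0.05, and without E13 Lhx2 was at 0.18. Of the control means over the same ages, 57.8% were below that of upstream Pou3f3, 46.0% below that of Foxp2 and 47.3% below that of downstream Pou3f3. Leaving out other ages raised the means. Foxp2 was at 0.51 without E13, above 90.8% of control means. Without E14 upstream Pou3f3 was at 0.56, downstream Pou3f3 at 0.52 and Lhx2 at 0.49, above 87.2%, 85.5% and 83.8% of control means. Over all ages the 5′-side Sox5 element, at 0.09, was above 50.2% of the controls. From upstream to downstream Pou3f3 the means over all ages differed by less than the standard error (SE) of any of them, 0.28 to 0.31.

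All 6 means were above 0, as were 78.1% of E14-class elements and 60.8% of scrambled controls, but the 5′-side Sox5 mean was -0.02 without E15. Their median of 0.30 was below the 0.36 of the whole class. None passed 0.81, the 97.5th percentile of the control means, which 23.1% of E14-class elements passed. In a limma fit over all elements and controls, the 3′-side Sox5 mean had an SE of 0.28 and an adjusted p of 0.370. The other 5 had limma adjusted p-values between 0.598 and 0.873. This fit called 0% of 10841 elements at an adjusted p under 0.05, and 1609 had an unadjusted p under 0.05.

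**Figure D2:**
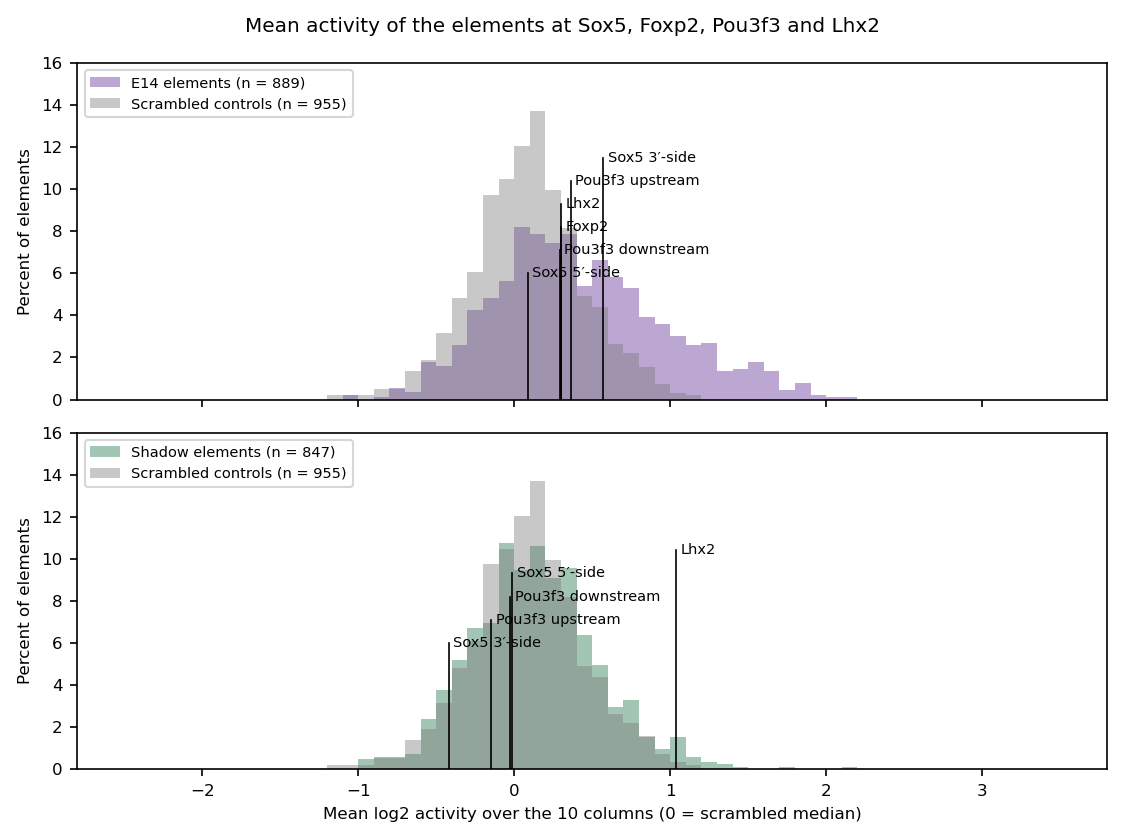
Mean log2 activity over the 10 combinations of cell type and age (x axis, 0 = scrambled median) for E14-class elements (top, purple) and Shadow elements (bottom, green), each over the scrambled controls (grey), in percent of elements. Lines mark the named elements: the E14-class ones lie between 0.09 and 0.57, and the Lhx2 Shadow element stands apart at 1.04.

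No difference between cell types common to the ages passed the test at any of the 6 regions. The 3′-side Sox5 element had a mean log2 activity of 0.92 in IPC and 0.22 in NSC, a difference of 0.70 (SE 0.55, limma adjusted p = 0.832). The difference was 2.42 at E13 and lay between -0.16 and 0.94 at the other ages, with IPC higher at 4 of 5 ages, which held for 28% of E14-class elements and 19.9% of scrambled controls. Without E13 it was 0.27.

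The upstream Pou3f3 element averaged 0.52 in IPC and 0.20 in NSC (difference 0.32, SE 0.62). Here too E13 gave the highest difference, 2.82, and without it the difference turned to -0.30. The downstream element averaged 0.13 in IPC and 0.46 in NSC (difference -0.33, SE 0.57), and its low IPC value made E14 the lowest age, at -2.52. Without E14 its difference turned to 0.22.

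For Lhx2 the mean was 0.24 in IPC and 0.36 in NSC (difference -0.12, SE 0.58). It was higher in IPC at E13 only (2.15), with the lowest differences at E16 (-1.19) and E17 (-1.22). Without E16 or without E17 the mean difference was 0.15. The Foxp2 element differed by -0.05 on average (SE 0.57), with 1.36 at E13 and -2.03 at E16, and its mean difference was 0.44 without E16. The 5′-side Sox5 element differed by -0.25 (SE 0.43) and was higher in IPC at E14 only. Limma adjusted p-values of these 5 differences were 0.940 to 0.995.

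No element at these regions exceeded 1.25, the 97.5th percentile of the differences of scrambled controls, in the E14 class, where 12% of elements did. The limma fit of the cell-type difference called 0% of 10841 elements, with 726 at an unadjusted p under 0.05.

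**Figure D3:**
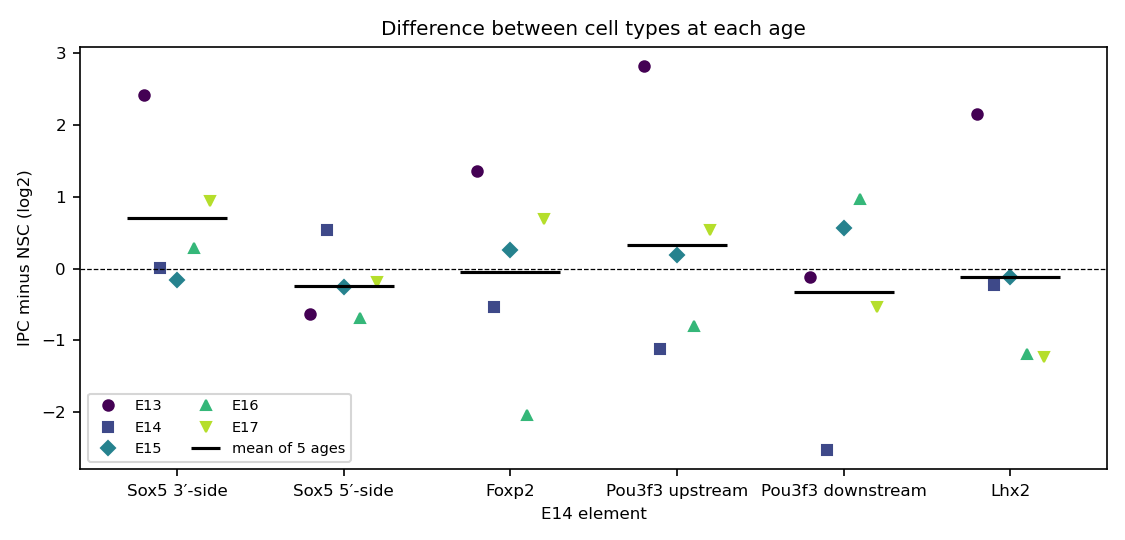
IPC minus NSC log2 activity of the 6 E14-class elements at each day of collection (symbols), with the mean of the 5 ages (bar). Differences at single ages run between -2.52 and 2.82, and E13 is the highest of the ages for 4 of the 6 elements. The share of all E14-class elements or controls with E13 highest was not counted, so this is not read as particular to these regions.

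Change with age was fitted as 1 line per cell type. Slopes passed no threshold: limma called 0% of 10841 elements for the slope in IPC, the slope in NSC or the difference between them, with 730, 777 and 664 elements at an unadjusted p under 0.05. The Lhx2 element of the E14 class had a slope of -0.40 log2 per day in IPC and 0.37 in NSC. The difference between the slopes was -0.77 (SE 0.34, limma adjusted p = 0.795), and -0.41 without E13. The upstream Pou3f3 element had a slope of 0.13 per day in IPC and 0.55 in NSC (SE 0.29 each, NSC limma adjusted p = 0.676), and its NSC slope was 0.14 without E13.

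Of the 5 Shadow elements 4 averaged at or under the scrambled median, and Lhx2 was the exception. The share of all Shadow elements averaging under it was not counted. On the log2 scale the median of all 847 Shadow means was 0.12, and 60.8% of scrambled controls had a mean above 0. The Lhx2 Shadow element had ratios of 9.60, 2.38, 5.40, 0.439 and 2.19 in IPC from E13 to E17. In NSC its ratios were 8.86, 2.52, 2.52, 0.267 and 0.832. Both cell types thus had their highest value at E13, values over the scrambled median at E14 and E15, and their lowest at E16. Its IPC value at E13 was above the 97.5th percentile of the controls.

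Its mean log2 activity was 1.33 in IPC and 0.74 in NSC (difference 0.59, SE 0.55, limma adjusted p = 0.863), with IPC higher at 4 of 5 ages. Over all combinations it was 1.04 (SE 0.27), above 99.6% of scrambled controls and 22nd of 847 Shadow elements. That limma mean had an unadjusted p of 0.00350 and an adjusted p of 0.182. The mean was 1.62 without E16. Without E13 it was 0.53, above 91.6% of controls, so that it no longer passed the 97.5th percentile. There it was lower than the 3′-side Sox5 mean of the E14 class (0.57 without E13). Without E15 it was 0.85, above 96.96% of control means over the same ages, and so also short of their 97.5th percentile. Of Shadow elements, 5.55% passed the limit of 0.81. The slope was -0.64 per day in IPC and -0.94 in NSC (SE 0.36 each, limma adjusted p = 0.796 and 0.676).

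The 3′-side Sox5 Shadow element had the lowest mean of the 11, at -0.42, but a mean of -0.08 without E16, when upstream Pou3f3 Shadow was lower at -0.19. Its ratios were 1.58, 3.30, 0.605, 0.711 and 0.962 in IPC from E13 to E17. In NSC they were 0.538, 0.819, 0.853, 0.0296 and 0.462, all below the scrambled median. Its mean was 0.22 in IPC and -1.06 in NSC, a difference of 1.28 (SE 0.54, limma adjusted p = 0.743) that was above 97.6% of the control differences. It was higher in IPC at 4 of 5 ages, by 2.65 at E16, where the NSC value lay below the 2.5th percentile of the controls. Without E16 the difference was 0.94. IPC was higher at 4 or more ages for 3 of the 5 Shadow elements (Lhx2, 3′-side Sox5 and downstream Pou3f3) and for 19.9% of scrambled controls. The share of all Shadow elements was not counted.

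The 5′-side Sox5 Shadow element had ratios of 1.29, 2.0, 0.966, 1.48 and 0.506 in IPC, against 3.74, 0.558, 0.843, 0.342 and 0.661 in NSC. NSC was thus high at E13 and below the scrambled median at every later age, with a slope of -0.52 per day (SE 0.26, limma adjusted p = 0.676) that was -0.05 without E13. The IPC slope was -0.28. At Pou3f3, the upstream Shadow element lay between 0.374 and 1.29 in IPC and between 0.584 and 1.77 in NSC. The downstream one lay between 0.641 and 2.08 in IPC and between 0.342 and 2.92 in NSC. Their means were -0.15 and -0.03, within the spread of the controls, and the second was 0.14 without E13 and 0.18 without E17. The 5′-side Sox5 Shadow mean of -0.01 likewise turned to 0.16 without E17.

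**Figure D4:**
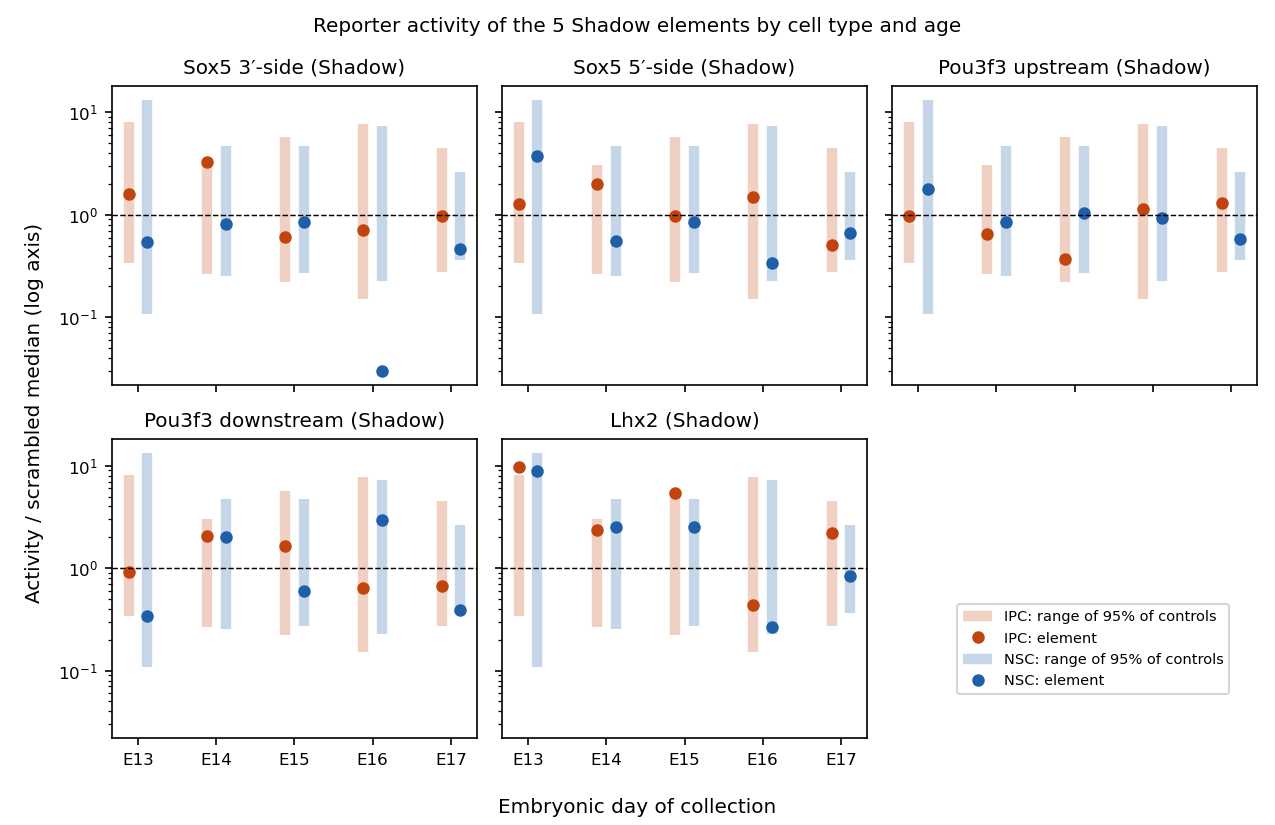
Activity of the 5 Shadow elements as a ratio to the scrambled median (log axis) at each day of collection, in IPC (orange) and NSC (blue), with bars for the central 95% of scrambled controls and a dashed line at their median. The Lhx2 values are highest at E13, 9.60 in IPC and 8.86 in NSC, and lowest at E16; the 3′-side Sox5 value in NSC at E16, 0.0296, lies far under its bar.

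Over all 50 Shadow values at these regions, 21 (42%) were above the scrambled median, a share that was not counted for the whole Shadow class. Values past the 97.5th percentile numbered 2, Lhx2 in IPC at E13 and 3′-side Sox5 in IPC at E14, against 3.77% of all Shadow values.

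Both classes were measured at 5 regions, which allowed a paired comparison, E14-class minus Shadow, within each combination of cell type and age. At the 3′-side Sox5 region the E14-class element was higher by 0.99 on average (SE 0.40). It was higher in 9 of 10 combinations, the exception being IPC at E14 (-1.09), and the NSC value at E16 gave the highest difference, 3.78. An exact sign-flip test over the 10 combinations gave a two-sided p of 0.0195, where the smallest possible is 0.00195. Over all 759 complete pairs, limma gave it an adjusted p of 0.145, and 8.56% of pairs were higher in at least 9 combinations. Without E16 the difference was 0.59.

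At Lhx2 the order was the other way, with a mean difference of -0.73 (SE 0.47) that was -0.34 without E13 and -1.41 without E16. The E14-class element was lower in 7 of 10 combinations, with -3.31 in NSC at E13, and higher in both cell types at E16 and in NSC at E17, with the highest difference 2.82. The exact sign-flip p was 0.230 and the limma adjusted p was 0.391.

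The other regions differed by less than their SE or little more. The mean difference was 0.51 (SE 0.42) at the upstream Pou3f3 region, 0.32 (SE 0.43) at the downstream one and 0.10 (SE 0.41) at the 5′-side Sox5 region, where it was -0.04 without E15. With 1 age left out it ran between 0.20 and 0.81 at the upstream Pou3f3 region (lowest without E15, highest without E13) and between 0.10 and 0.80 at the downstream one (lowest without E13, highest without E14). The E14-class element was higher in 7, 6 and 6 of 10 combinations, with exact sign-flip p-values of 0.268, 0.529 and 0.723. Over all pairs the median difference was 0.28, and the E14-class element was higher on average in 66.3% of pairs. The limma fit of pairs called 0% of 759, with 161 at an unadjusted p under 0.05.

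**Figure D5:**
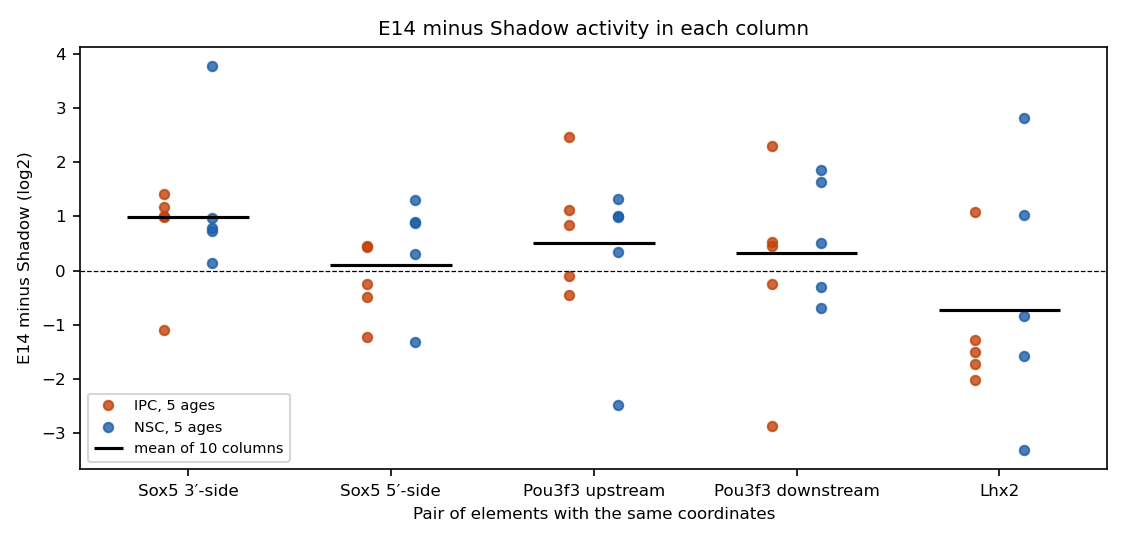
E14-class minus Shadow log2 activity at the 5 regions with both elements, 1 point for each age in IPC (orange) and NSC (blue), with the mean of the 10 points (bar). At the 3′-side Sox5 region 9 of 10 points lie above 0, and at Lhx2 7 of 10 lie below it.

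In the authors' deposited table, an adjusted p under 0.05 marks values above the scrambled median by a multiple of the controls' median absolute deviation, a measure that their upper tail can exceed too. It marked 6 of the 60 E14-class values (10%), where the share was 21.9% over all E14-class elements and 10.6% over the scrambled controls. By the authors' deposited table these were 3′-side Sox5 in IPC at E13 (p = 1.88e-05), Foxp2 in IPC at E15 (0.0193), upstream Pou3f3 in IPC at E15 (0.0480) and downstream Pou3f3 in IPC at E16 (0.00984). Lhx2 was marked in IPC at E13 (3.34e-06) and in NSC at E16 (0.0495) in the authors' deposited table, and 5′-side Sox5 nowhere. The marked values were above 87.7% to 91.7% of the controls of their combination. No E14-class element at these genes was marked in 3 or more combinations, which held for 37.2% of E14-class elements and 10.5% of scrambled controls.

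Of the Shadow values at these regions, the authors' deposited table marked 8 of 50 (16%), against 13% over all Shadow elements. Lhx2 held 5 of the 8: IPC at E13, E14 (0.0175) and E15 (1.40e-11), and NSC at E13 (5.86e-13) and E14 (0.0157), again by the authors' deposited table. Of these 5, only IPC at E13 passed the 97.5th percentile of its controls, and the rest were above 91.3% to 97.1% of theirs. The other 3 of the 8 were 3′-side Sox5 in IPC at E14, 5′-side Sox5 in NSC at E13 and downstream Pou3f3 in NSC at E16. The first of the 3 passed that percentile, and the others were above 87.2% and 90.6% of their controls. As these marks were also given to controls, a single one is not read here as activity.

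E14-class elements were also counted over a list of layer and projection neuron genes that holds the 4 genes described here. Of 41 listed gene names, 40 were in the annotation (Ctip2 is an older name of Bcl11b), and 8 genes had E14-class elements, 12 in all, of which 11 had every value. Those 11 means were all above 0, as were 78.1% of E14-class elements and 60.8% of scrambled controls. Their median was 0.29, against 0.36 for all 889 E14-class elements. The element left out, also near Pou3f3, averaged -0.26 over its 9 values. The 11 include the 6 elements described above. The other 5, which include a further one near Pou3f3, had a median of 0.16. The limit of the control means was passed by 23.1% of all E14-class elements and by 1 of these 5. That was an element 2.44 kb from Emx1, a homeobox gene of cortical progenitors, with a mean of 1.32, 2.17 in IPC and 0.47 in NSC. It was marked in 5 combinations in the authors' deposited table. The other end of the 11 was held by an element 37.5 kb from Mdga1, a cell-surface gene of upper-layer neurons, at 0.05.

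Pou3f3 was also the nearest gene to 2 further E14-class elements, at 452.2 kb and 441.6 kb. The first averaged 0.13, with ratios between 0.678 and 1.34. The second had 9 of 10 values, with a mean of -0.26 over those. The first was also, of 693 E14-class elements with a mean above 0, the one whose log2 values followed the downstream Pou3f3 element most closely over the 10 combinations (Pearson's r 0.84).

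For the others the closest patterns belonged to elements 146.2 kb from Rgmb (r 0.94 with 3′-side Sox5), within Megf10 (0.84 with 5′-side Sox5), within Itprid2 (0.91 with Foxp2), 8.70 kb from Atp2a2 (0.84 with upstream Pou3f3) and 18.2 kb from Egfem1 (0.89 with Lhx2). Each r was the highest of 693 over 10 combinations that share the element library and not sequencing libraries, and is given as a description. Among the 6 elements themselves r ran between -0.64, for downstream Pou3f3 with 5′-side Sox5, and 0.65, for upstream Pou3f3 with Foxp2. The 2 Sox5 elements had an r of -0.45 and the 2 Pou3f3 elements one of 0.22.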

How the data were processed

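The authors' deposited table holds 30 columns, 3 for each cell type and age: an activity score named statistic, a MAD score and a p-value. Per the submitters' processing notes, cutadapt and mm10 were used; for the aligner, barcode counting and tool behind the score, nothing is given in the sources used here. Recomputed from the scores, the authors' MAD score was the distance from the scrambled median in scaled median absolute deviations, and the deposited p-value its upper-tail normal p after Benjamini-Hochberg adjustment within the column (tolerance 1e-06). Depth per sample is unknown.

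Scores were expressed as a ratio to their column's scrambled median, and log2(ratio + 0.1) minus the same term at a ratio of 1 was taken, which understates changes near 0. Elements with all 10 values (10841) were fitted with limma 3.58.1 in R 4.3.3 (eBayes with a mean-variance trend, two-sided, Benjamini-Hochberg over all elements tested, adjusted p under 0.05), with age as a factor for cell types and 1 line per cell type for slopes. Observations are columns, not animals. The scripts were tested on simulated data. The alternatives were other pseudocounts (0.5 and 0.01), centring on the scrambled mean, quantile normalization, elements with missing values kept, eBayes without a trend, no age term, 1 cell type at a time and each age left out.

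The members and lists were chosen with earlier results of these data known, and the percentile limits from the controls were added after values had been seen. Named are all 11 members, the E14-class element most alike to each, the listed genes' elements at Sox5, Foxp2, Pou3f3 and Lhx2, and the 3 highest and the lowest of the list. A slope is given where its unadjusted p, or that of the difference between the cell types' slopes, was under 0.1. The slope in the other cell type is given beside it. Genes are those whose span holds an element or lies nearest, of 21896 protein-coding genes.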

Additional observations from a re-analysis of the deposited data

How the results depend on the processing

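No element at these genes was called by limma in any setting. Over all elements, the mean was called for 114 (113 higher, 1 lower) with eBayes without a trend, against 0 with it, and E14 minus Shadow for 17 pairs (16 higher, 1 lower), against 0. With missing values kept, 1 element was called for the slope in IPC. Leaving out single ages called 0 to 14 pairs, 14 of them without E16. The sign of 4 means changed. With IPC columns only, 3′-side Sox5 Shadow was 0.22 (-0.42 over all columns), 5′-side Sox5 -0.0376 (E14 class) and 0.18 (Shadow), and downstream Pou3f3 Shadow 0.0923. With a pseudocount of 0.5 the Shadow elements at 5′-side Sox5 and downstream Pou3f3 were 0.0410 and 0.0370, and the second was 0.0676 after quantile normalization.

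Leaving out 1 age, mean activity ran between -0.0249 and 0.20 for 5′-side Sox5 (E14 class), -0.28 and 0.16 for its Shadow element, and -0.28 and 0.18 for downstream Pou3f3 Shadow. IPC minus NSC ran between -0.40 and 0.44 at Foxp2, -0.30 and 0.68 at upstream Pou3f3 (-0.53 and 0.0457 for its Shadow element), -0.65 and 0.22 at downstream Pou3f3 (-0.0333 and 0.81 for its Shadow element), and -0.69 and 0.15 at Lhx2. E14 minus Shadow at 5′-side Sox5 ran between -0.0423 and 0.35. Each of these fits also has fewer columns, and the cause of these changes was not tested. The means of the other 5 E14-class elements stayed above 0 with each age left out, 0.05 at the lowest. No paired analysis was possible because, at the level of replicates, the deposited values are pooled over the numbers that the labels share, so the replicate block was not run. Pairing by age and by coordinates is in the main fits.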
